A study of Mus musculus with 11 samples.

Results

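The transcripts of ATF4, CHOP and their direct targets were followed in type 1 conventional dendritic cells (cDC1s) sorted from mouse B16 melanoma tumors. The set was a fixed list of 10 genes that carry the integrated stress response, namely Atf4, Ddit3, Trib3, Asns, Chac1, Atf3, Ppp1r15a, Sesn2, Eif4ebp1 and Cebpb, and its rule used no measured value, although earlier results of these data were known when it was drawn up. All 10 were found among the 24421 genes of the count table, and all 10 passed the filter on low counts together with 10951 genes in all.

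RNA was measured in 11 pools of sorted cDC1s, each from 2 to 4 mice of 6 to 14 weeks of age, and 5000 to 20000 cells were sorted per pool. The 4 control pools carried floxed alleles without Cre: replicates 1 to 3 were XBP1 fl/fl and replicate 4 was XBP1 fl/fl IRE1 fl/fl. The 4 XBP1ΔDC pools were XBP1 fl/fl with CD11c-CRE, and the 3 XBP1ΔDC IRE1truncDC pools carried XBP1 fl/fl, IRE1 fl/fl and CD11c-CRE. The Cre transgene is driven by CD11c (Itgax) regulatory sequences and acts in CD11c-expressing cells at large, not in cDC1s alone. Nothing assigns the replicate numbers to a shared experiment. Control replicate 4 was the single control pool with the floxed Ern1 alleles of the double-deficient line.

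In the unfolded protein response, 3 sensors watch the lumen of the endoplasmic reticulum (ER). IRE1, encoded by Ern1, splices Xbp1 mRNA into the template for the transcription factor XBP1s, and ATF6 is cleaved to release another transcription factor. The kinase PERK, encoded by Eif2ak3, phosphorylates the translation factor eIF2, as do the kinases GCN2, PKR and HRI, and the shared downstream program is called the integrated stress response. Phosphorylated eIF2 lowers overall protein synthesis and lets ATF4 mRNA be translated, so that much of ATF4 control lies beyond the reach of mRNA counts. ATF4 then switches on genes for amino acid synthesis and transport, the transcription factor CHOP (Ddit3) and feedback inhibitors. The comparisons below asked whether these transcripts differ in tumor cDC1s when XBP1 is lost alone or together with the RNase domain of IRE1.

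The pools held 21089065 to 26843486 counts in total, with overlapping ranges between genotypes. Xbp1 stood at 255 ± 11.5 CPM (CPM is the read count relative to the TMM-scaled library total; mean ± SD, n = 4) in control, 152 ± 15.8 (n = 4) in XBP1ΔDC and 209 ± 28.7 (n = 3) in XBP1ΔDC IRE1truncDC pools. Each value of both lines lay below each control value. Since Cre removes only a part of either gene, counts per gene do not show the deletion itself, and Ern1 stood at 13.98 ± 3.80, 12.4 ± 2.48 and 21.5 ± 4.49 CPM. The cDC1 genes Xcr1 and Clec9a were present in every pool at 751 CPM or more and 123 CPM or more, while the summed level of 7 T and NK cell markers was at most 13.4 CPM and that of 4 neutrophil markers at most 1.87 CPM. The summed level of 5 B and plasma cell markers was at most 1.99 CPM, and 2 of the 5 were at 0 in all pools.

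Among the stress transcripts the differences from control were largest for Trib3 and Asns, and the groups overlapped for Atf3, Ppp1r15a and Cebpb. Against control, the fitted difference was above 0 for 10 of 10 genes in XBP1ΔDC pools (51.2% of all tested genes) and for 9 of 10 in XBP1ΔDC IRE1truncDC pools (49.4%). A gene was called a differentially expressed gene (DEG) at an adjusted p under 0.05 (edgeR quasi-likelihood test, Benjamini-Hochberg over all genes tested) with a fold change above 1.5. None of the 10 was a DEG in XBP1ΔDC pools, where 0.493% of all tested genes were, 0.0274% in the higher direction, while DESeq2 called 3. In XBP1ΔDC IRE1truncDC pools Trib3, Asns and Eif4ebp1 were DEGs, 3 of 10 and all higher, where 0.21% of tested genes were, 0.0639% in the higher direction. At an unadjusted p under 0.05, 5 of 10 were higher in XBP1ΔDC pools (background 2.67%) and 7 of 10 in XBP1ΔDC IRE1truncDC pools (background 5.73%). None was lower in either line (background 4.95% and 5.44%). The median log2 fold change over the 10 genes was 0.30 and 0.55, against 0.0050 and -0.0031 over all tested genes. Both comparisons use the same 4 control pools, so their values are given side by side and are not independent of each other. In bulk RNA a change per cell and a change in the share of cells that express a gene cannot be told apart.

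**Figure D1:**
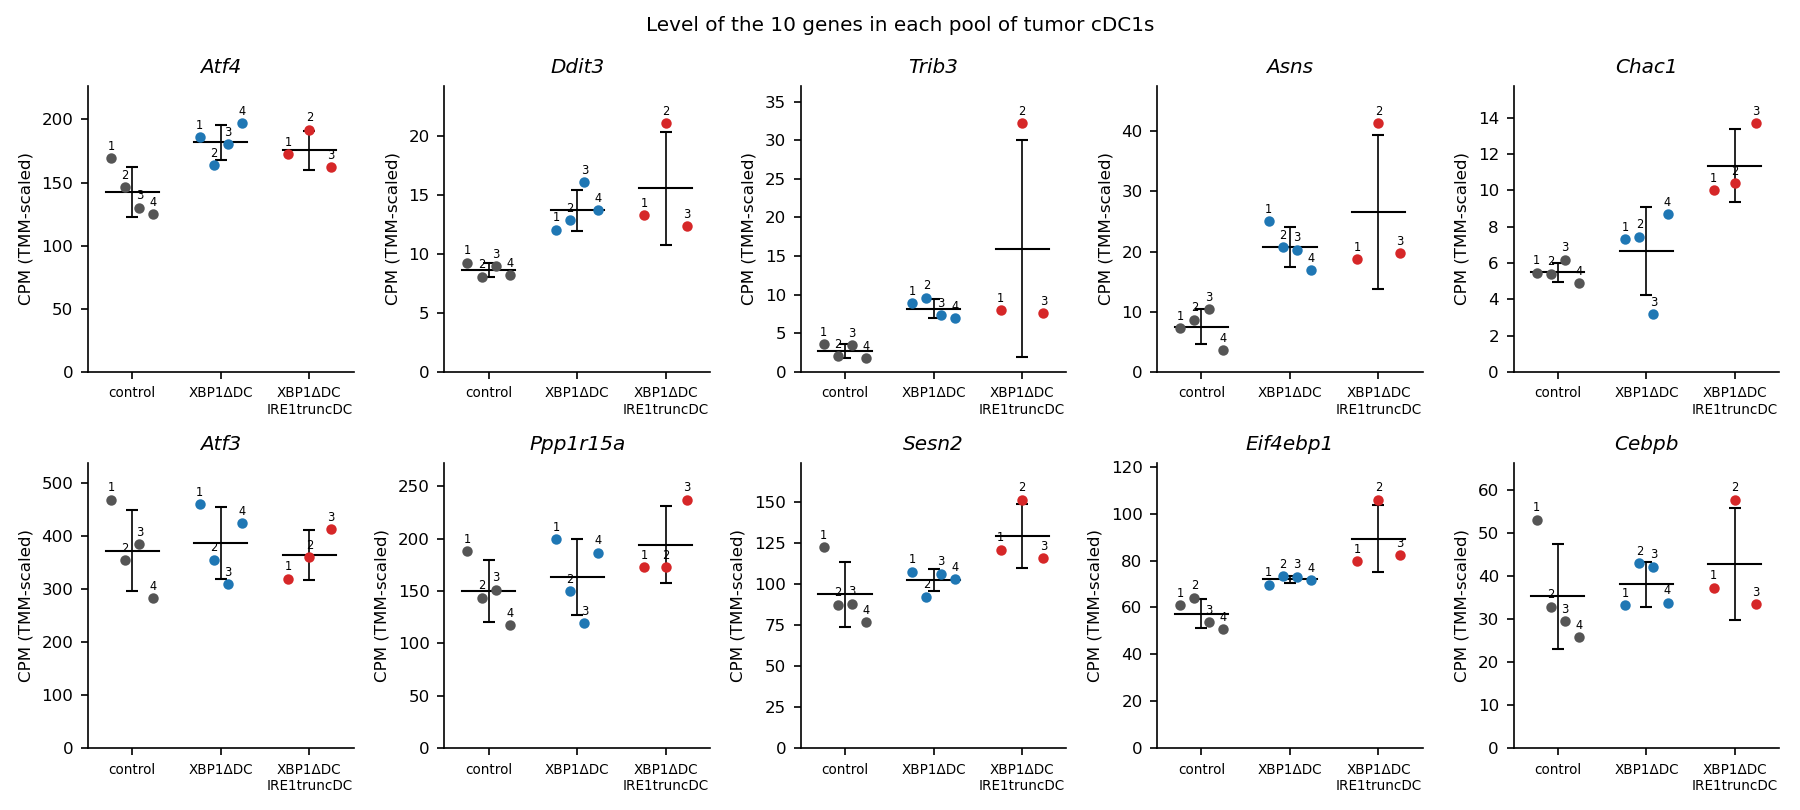
Level of each of the 10 genes in every pool, in CPM after TMM scaling on a linear axis from 0; points are pools with their replicate number, the bar is the group mean and the whisker the SD (n = 4, 4 and 3). For Ddit3, Trib3, Asns and Eif4ebp1 no pool of either line reached down to the control values, whereas Atf3, Ppp1r15a and Cebpb overlapped across the 3 genotypes.

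Per length of annotated exons, the most abundant of the 10 in control pools was Atf3 at 173 ± 35.6 RPKM, followed by Atf4 at 60.5 ± 8.42 and Ppp1r15a at 51.1 ± 9.97. Sesn2 (26.96 ± 5.72), Eif4ebp1 (26.2 ± 2.84) and Cebpb (23.5 ± 8.08) formed a middle group whose levels did not differ beyond their spread. The lowest were Ddit3 at 5.03 ± 0.338, Chac1 at 3.35 ± 0.329, Asns at 2.73 ± 1.06 and Trib3 at 1.27 ± 0.445 RPKM (mean ± SD, n = 4 throughout). The genes with the largest fold changes were thus among the least abundant, and the control values of Trib3 rest on 40 to 84 counts per pool.

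Atf4 encodes the transcription factor at the head of the program (chr15:80255184-80257541, plus strand; coordinates here and below are of GRCm38). It stood at 169, 146, 130 and 125 CPM in control replicates 1 to 4, at 186, 164, 181 and 197 CPM in the XBP1ΔDC pools and at 172, 192 and 162 CPM in the XBP1ΔDC IRE1truncDC pools. Control replicate 1 reached into the range of both lines. The log2 fold change was 0.35 ± 0.10 (SE; unadjusted p = 0.00444, adjusted p = 0.235) in XBP1ΔDC and 0.30 ± 0.11 (unadjusted p = 0.0172, adjusted p = 0.319) in XBP1ΔDC IRE1truncDC pools, so that neither difference passed the threshold.

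Ddit3 encodes CHOP, an ATF4 target that drives later and pro-apoptotic parts of the response (chr10:127290774-127296288, plus strand). Its 4 control pools held 9.24, 8.07, 8.96 and 8.17 CPM. The XBP1ΔDC pools held 12.05, 12.8, 16.1 and 13.7 CPM, and the XBP1ΔDC IRE1truncDC pools 13.3, 21.1 and 12.3 CPM. No pool of either line overlapped with control, a pattern shown in the higher direction by 1.63% of tested genes in XBP1ΔDC and by 4.31% in XBP1ΔDC IRE1truncDC pools. The fitted difference was 0.67 ± 0.18 (adjusted p = 0.185) and 0.85 ± 0.19 (adjusted p = 0.100) on the log2 scale. The exons of Ddit3 overlap those of Mars on the opposite strand over 68 bases (4.0% of its length) and those of a second Ddit3 entry over 105 bases (6.1%), and the library kit does not mark strand, so reads there cannot be told apart.

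Atf3 and Cebpb encode transcription factors that share partners with ATF4 and CHOP and that respond to many signals besides eIF2. Atf3 (chr1:191170296-191218039, minus strand) ranged from 283 to 469 CPM in control, from 310 to 461 CPM in XBP1ΔDC and from 320 to 413 CPM in XBP1ΔDC IRE1truncDC pools. Its log2 fold changes were 0.057 (95% confidence interval -0.28 to 0.39) and -0.032 (-0.39 to 0.33). Cebpb (chr2:167688915-167690418, plus strand) ranged from 25.8 to 53.0, from 33.2 to 43.0 and from 33.5 to 57.7 CPM, with log2 fold changes of 0.11 (-0.38 to 0.59) and 0.28 (-0.24 to 0.80). Neither gene had an unadjusted p under 0.05 in any comparison, and the direction for Atf3 turned in both comparisons with control, and that for Cebpb in XBP1ΔDC pools, when single pools were left out. Cebpb shares 312 exon bases (20.7% of its length) with Tmem189 on the opposite strand.

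Trib3 encodes a pseudokinase that binds and restrains ATF4 and CHOP, a feedback arm of the response (chr2:152337422-152344032, minus strand). The control pools held 3.56, 2.00, 3.48 and 1.79 CPM, the XBP1ΔDC pools 8.88, 9.60, 7.31 and 6.99 CPM, and the XBP1ΔDC IRE1truncDC pools 8.01, 32.2 and 7.61 CPM. Each pool of both lines lay above each control pool, and replicate 2 of the double-deficient line stood far above its partners. The log2 fold change was 1.60 ± 0.44 in XBP1ΔDC (adjusted p = 0.191) and 2.55 ± 0.46 in XBP1ΔDC IRE1truncDC pools (adjusted p = 0.0396). Without that replicate 2, the second value became 1.53 (adjusted p = 0.0812) and the first stayed at 1.60 with an adjusted p of 0.0119.

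Asns encodes asparagine synthetase, a classical ATF4 target of amino acid supply (chr6:7675169-7693254, minus strand). It was measured at 7.25, 8.66, 10.4 and 3.57 CPM in control, at 25.0, 20.7, 20.3 and 16.9 CPM in XBP1ΔDC and at 18.7, 41.3 and 19.7 CPM in XBP1ΔDC IRE1truncDC pools. The lowest pool of either line was above the highest control pool. The log2 fold change was 1.47 ± 0.32 (adjusted p = 0.0522) in XBP1ΔDC and 1.83 ± 0.33 (adjusted p = 0.0396) in XBP1ΔDC IRE1truncDC pools. Leaving out replicate 2 of the double-deficient line gave 1.36 (adjusted p = 0.116) for that line and 1.47 (adjusted p = 0.0186) for XBP1ΔDC.

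Chac1 encodes an enzyme that degrades glutathione and is induced downstream of ATF4 (chr2:119351229-119354381, plus strand). Its level was 5.47, 5.41, 6.18 and 4.87 CPM in control and 7.29, 7.45, 3.18 and 8.69 CPM in XBP1ΔDC pools, and replicate 3 of that line lay below all controls. In XBP1ΔDC IRE1truncDC pools the level was 10.01, 10.4 and 13.7 CPM, above every pool of both other groups. The log2 fold change was 0.28 ± 0.27 (adjusted p = 0.939) in XBP1ΔDC and 1.05 ± 0.29 (unadjusted p = 0.00295, adjusted p = 0.184) in XBP1ΔDC IRE1truncDC pools. Without XBP1ΔDC replicate 3 these became 0.52 (adjusted p = 0.522) and 1.05 (adjusted p = 0.0471).

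The promoters of these genes were searched for the C/EBP-ATF response element (CARE), the composite site bound by ATF4 with a C/EBP partner, written here as TGATGNAA and searched on both strands. RefSeq promoters of GRCm38.p6 (250 bases before to 50 after the start) were matched by symbol for 9 of the 10 genes, all but Eif4ebp1. Asns, Trib3, Chac1 and Atf3 each held a match, that is 4 of 9, against 3.97% of all 32851 promoters and 2.35% of the 10776 promoters of tested genes. The 30 bases around each match are shown because they hold the letters that these 4 genes have in common, 5′ to 3′ on the strand of the gene, with the match in capitals. The site reads TGATG in Asns and its reverse complement in the others, and in Trib3 it begins at base 15 after the RefSeq start.
Asns, chr6:7693214-7693243, minus strand: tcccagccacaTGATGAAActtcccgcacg
Trib3, chr2:152344028-152344057, minus strand: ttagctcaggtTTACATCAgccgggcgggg
Chac1, chr2:119351038-119351067, plus strand: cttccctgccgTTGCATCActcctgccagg
Atf3, chr1:191183425-191183454, minus strand: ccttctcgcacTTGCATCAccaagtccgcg

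Among these 4 genes, Asns and Trib3 had unadjusted p under 0.05 in both lines and Chac1 in the double-deficient line, whereas Atf3 differed in none. Of the genes with a promoter but no match, Atf4 and Ddit3 had one in both lines and Sesn2 in the double-deficient line. Ppp1r15a and Cebpb had one in neither. The share of all tested genes higher at that level was 2.67% in XBP1ΔDC and 5.73% in XBP1ΔDC IRE1truncDC pools. A match to these letters is a description and not a bound site. The genes were chosen as part of the ATF4 program, so their share of matches is no test either. Ppp1r15a instead held the cAMP response element TGACGTCA, which begins at position -12 relative to its start (1.79% of all promoters and 3.16% of those of tested genes), and Ddit3 an AP-1 site of the form TGANTCA that begins at position -242 (7.81% and 4.83%). The windows of Atf4, Cebpb and Sesn2 held none of these motifs on either strand, nor the UPR element TGACGTGG or the ER stress element, which says only that these letters are not within them.

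Ppp1r15a encodes GADD34, the stress-induced subunit that directs phosphatase PP1 to eIF2 and restarts protein synthesis (chr7:45522916-45526268, minus strand). It ranged from 117 to 188 CPM in control, from 119 to 199 CPM in XBP1ΔDC and from 173 to 237 CPM in XBP1ΔDC IRE1truncDC pools. The groups overlapped, with log2 fold changes of 0.12 ± 0.18 (adjusted p = 0.958) and 0.37 ± 0.19 (unadjusted p = 0.0709, adjusted p = 0.502). The pools with the highest Ppp1r15a of their group, control replicate 1, XBP1ΔDC replicate 1 and XBP1ΔDC IRE1truncDC replicate 3, were also those with the highest Atf3.

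Sesn2 encodes sestrin 2, a leucine sensor that restrains mTORC1 (chr4:132492032-132510501, minus strand). Control pools held 122, 87.5, 88.0 and 76.8 CPM, XBP1ΔDC pools 108, 92.4, 106 and 103 CPM, and XBP1ΔDC IRE1truncDC pools 121, 151 and 116 CPM. Control replicate 1 lay above 2 of the 3 pools of the double-deficient line. The log2 fold change was 0.13 ± 0.13 (adjusted p = 0.945) in XBP1ΔDC and 0.46 ± 0.14 (unadjusted p = 0.00692, adjusted p = 0.243) in XBP1ΔDC IRE1truncDC pools.

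Eif4ebp1 encodes 4E-BP1, which holds the cap-binding protein eIF4E away from mRNA unless mTORC1 phosphorylates it (chr8:27260329-27276674, plus strand). Its XBP1ΔDC pools varied least of the set, with a coefficient of variation of 2.32%. Control pools held 61.0, 64.2, 53.6 and 50.8 CPM, XBP1ΔDC pools 69.7, 73.4, 73.1 and 71.6 CPM, and XBP1ΔDC IRE1truncDC pools 79.8, 106 and 82.3 CPM. The 3 groups did not overlap and followed the order control, XBP1ΔDC, XBP1ΔDC IRE1truncDC. The log2 fold change was 0.33 ± 0.10 (unadjusted p = 0.00858, adjusted p = 0.346) in XBP1ΔDC and 0.64 ± 0.11 (adjusted p = 0.0312) in XBP1ΔDC IRE1truncDC pools.

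**Figure D2:**
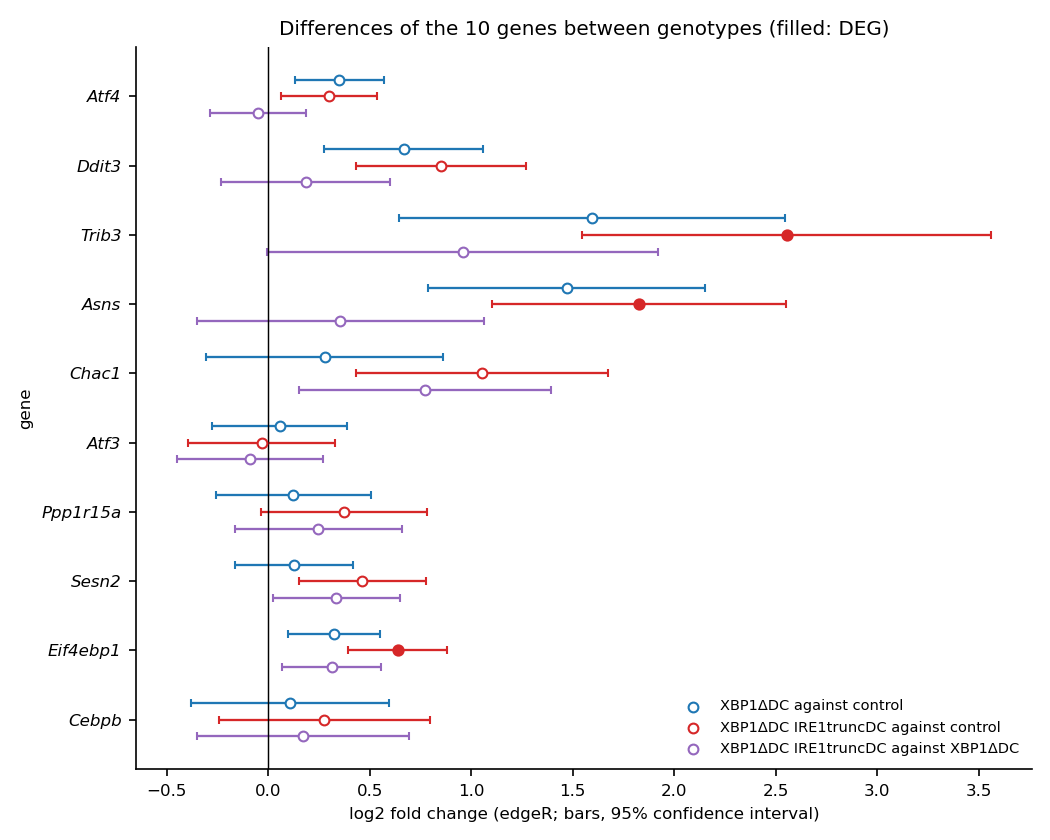
Log2 fold changes of the 10 genes in 3 comparisons, from 1 edgeR fit of all 11 pools; bars are 95% confidence intervals and filled points are DEGs. Trib3 (2.55), Asns (1.83) and Eif4ebp1 (0.64) in XBP1ΔDC IRE1truncDC against control are the filled points, and the intervals of Atf3 and Cebpb cross 0 in all 3 comparisons.

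The 3 DEG calls sat close to the threshold. The Trib3 call was lost (adjusted p 0.0588 to 0.137) without any 1 of the 4 control pools, any 1 of the 4 XBP1ΔDC pools or replicate 2 of the double-deficient line, and held without replicate 1 or 3 of that line. That of Asns was lost (0.0513 to 0.123) without any 1 pool other than control replicate 3. Eif4ebp1 lost its call (0.0521 to 0.0912) without control replicates 1, 3 or 4, XBP1ΔDC replicates 1, 3 or 4, or replicates 2 or 3 of the double-deficient line. Over these 11 fits the log2 fold change remained between 1.53 and 2.89 for Trib3, between 1.36 and 2.03 for Asns and between 0.50 and 0.71 for Eif4ebp1, and no unadjusted p exceeded 0.000784. DESeq2 called 3 of the 10 genes in XBP1ΔDC (Ddit3, Trib3 and Asns, adjusted p 0.0455, 0.0118 and 0.000288) and 5 in XBP1ΔDC IRE1truncDC pools, where it also called Ddit3 and Chac1. Over all genes DESeq2 called 75 and 95 DEGs, against 54 and 23 with edgeR. In the latter pools limma voom called 1 of the 10, and edgeR fitted on only the 2 groups compared called none (8 at an unadjusted p under 0.05).

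Both lines averaged against control, a contrast added after the data were seen, gave 2 DEGs among the 10 (background 0.0639% in the higher direction) and 7 genes at an unadjusted p under 0.05 (background 4.87%). Trib3 had a log2 fold change of 2.07 ± 0.41 (adjusted p = 0.0303) and Asns of 1.65 ± 0.29 (adjusted p = 0.0154) in this edgeR contrast. Eif4ebp1 reached an adjusted p of 0.0281, as 0.977% of tested genes reached one under 0.05, at a log2 fold change of 0.48 below the fold limit, and Ddit3 an adjusted p of 0.0507 at 0.76. For these 4 genes all 7 Cre-positive pools lay above all 4 control pools, as did 0.584% of tested genes. The Asns call was lost without control replicate 1 (adjusted p = 0.0656) or 2, and the Trib3 call without any 1 control pool or without XBP1ΔDC replicate 1, 2 or 4 (adjusted p up to 0.135). The adjusted p of Eif4ebp1 passed 0.05 without control replicate 1, 3 or 4 or any 1 XBP1ΔDC pool (up to 0.122), and that of Ddit3 was 0.0339 without replicate 3 of the double-deficient line and 0.0542 to 0.193 without any other single pool.

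Directly against XBP1ΔDC, the XBP1ΔDC IRE1truncDC pools had higher fitted levels for 8 of the 10 genes (background 50.4%) and none was a DEG (background 0.0731%). At an unadjusted p under 0.05 there were 3, Chac1, Sesn2 and Eif4ebp1, all higher (background 2.79%), and DESeq2 called none. Chac1 differed by 0.77 ± 0.29 (95% confidence interval 0.15 to 1.39; adjusted p = 0.819), Sesn2 by 0.34 ± 0.14 (0.023 to 0.65; adjusted p = 0.931) and Eif4ebp1 by 0.31 ± 0.11 (0.069 to 0.55; adjusted p = 0.787). The pools of these 3 genes did not overlap between the lines, with the double-deficient line higher, as for 3.11% of tested genes. For Trib3 the difference was 0.96 (-0.0053 to 1.92) and for Asns 0.36 (-0.35 to 1.06). These differences leaned on replicate 2 of the double-deficient line. Without it Trib3, Asns, Ddit3 and Cebpb turned to -0.071, -0.12, -0.10 and -0.11, and Sesn2 and Eif4ebp1 stood at 0.21 and 0.17. Of the 10 genes, Chac1 alone then had an unadjusted p under 0.05 (0.83, unadjusted p = 0.0268, adjusted p = 0.632).

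**Figure D3:**
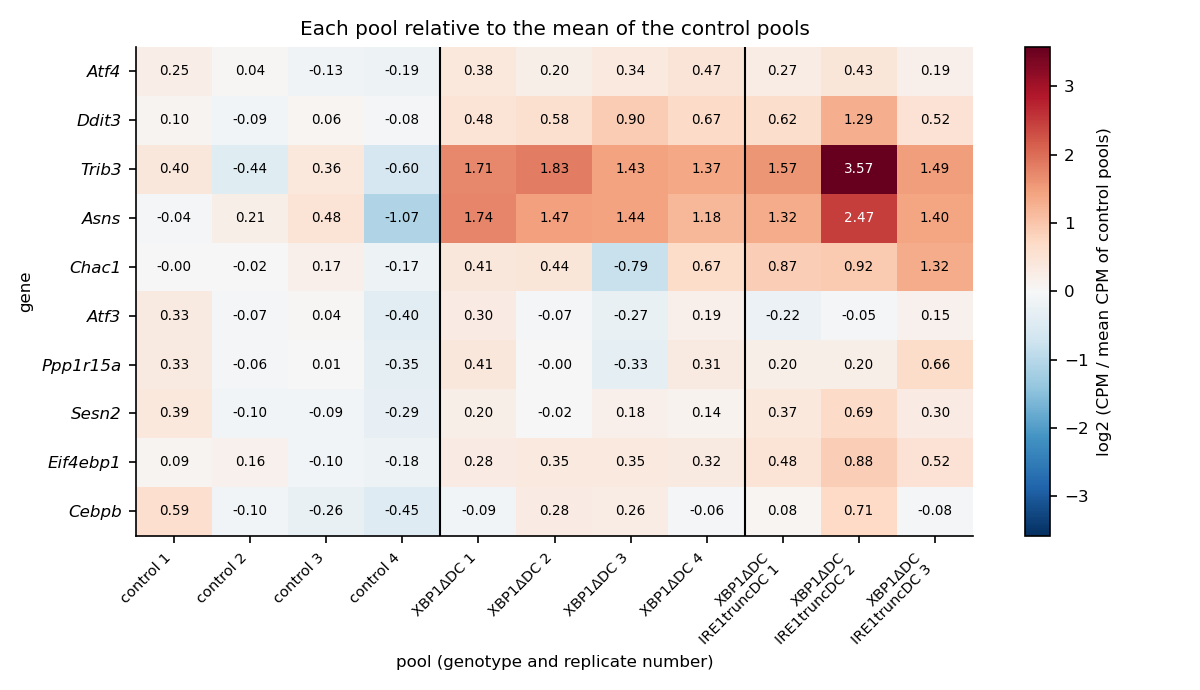
Log2 ratio of each pool to the mean CPM of the 4 control pools, by gene (rows) and pool (columns), on a symmetric color scale. Trib3 and Asns are above 1 in all 7 Cre-positive pools, replicate 2 of XBP1ΔDC IRE1truncDC reaches 3.57 for Trib3, and control replicate 4 is below 0 for all 10 genes.

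Pools of a genotype did not move in unison. XBP1ΔDC IRE1truncDC replicate 2 was the highest of its group for 7 of the 10 genes, all but Chac1, Atf3 and Ppp1r15a, for which replicate 3 was highest. Relative to the control mean, replicate 2 stood at 3.57 on the log2 scale for Trib3 and 2.47 for Asns, while replicates 1 and 3 stood at 1.57 and 1.49 for Trib3 and at 1.32 and 1.40 for Asns, close to the XBP1ΔDC pools (1.37 to 1.83 and 1.18 to 1.74). Control replicate 4, the only control with IRE1 fl/fl alleles, was the lowest control for 9 of the 10 genes, and control replicate 1 the highest for 7. Without control replicate 4, 5 genes in XBP1ΔDC and 6 in XBP1ΔDC IRE1truncDC pools had an unadjusted p under 0.05 and none was a DEG. The background of that fit was 2.05% and 4.15% in the higher direction. In that fit Asns differed by 1.24 and 1.60 and Trib3 by 1.44 and 2.40 on the log2 scale, and Atf4 in the double-deficient line by 0.24 (unadjusted p = 0.0522, adjusted p = 0.569). No gene had a pool that stood apart from the other 3 of its group by Dixon's ratio, which was computed in the 2 groups of 4 pools.

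The kinases and regulators that act on eIF2, upstream of ATF4, were mixed in direction. In a list of 16 further eIF2 kinases, eIF2 subunits and regulators, all tested, 8 were higher and 8 lower in XBP1ΔDC than in control pools, with a median log2 fold change of -0.014. The XBP1ΔDC IRE1truncDC pools had 5 higher and 11 lower, with a median of -0.082. At an unadjusted p under 0.05, 1 was higher and 3 were lower in each line (background for higher 2.67% and 5.73%, for lower 4.95% and 5.44%). In XBP1ΔDC pools the 1 higher became 2 without replicate 2 or 3 of the double-deficient line. For the double-deficient line it became 2 without control replicate 3 or without its own replicate 3. In the double-deficient line the 3 lower became 1 without control replicate 1 or without replicate 1 or 3 of that line, 2 without control replicate 2 or 3, and 4 without replicate 2 of that line. Leaving out 1 pool moved the number of higher genes between 5 and 10 in XBP1ΔDC and between 4 and 9 in XBP1ΔDC IRE1truncDC pools. Eif2ak3, which encodes PERK itself, fell from 46.85 ± 4.02 CPM in control to 28.7 ± 5.01 CPM in XBP1ΔDC pools (log2 fold change -0.71 ± 0.12, adjusted p = 0.0151). Dnajc3, which encodes the ER co-chaperone and kinase inhibitor p58IPK, fell by 0.52 on the log2 scale (adjusted p = 0.0427). The Eif2ak3 call was lost (adjusted p up to 0.0658) without control replicate 1 or 3 or XBP1ΔDC replicate 3, and that of Dnajc3 (up to 0.142) without any 1 pool other than XBP1ΔDC replicate 2 or XBP1ΔDC IRE1truncDC replicate 2. In XBP1ΔDC IRE1truncDC pools Eif2ak3 stood at 38.0 ± 2.00 CPM (-0.30, unadjusted p = 0.0412, adjusted p = 0.414) and Dnajc3 at -0.31 (adjusted p = 0.339). Eif2s2, the beta subunit of eIF2, had log2 fold changes of 0.35 (adjusted p = 0.139) and 0.42 (adjusted p = 0.100), and 0.39 with both lines averaged (adjusted p = 0.0404, and up to 0.151 without 1 pool). Between the lines, Ppp1r15b, the constitutive counterpart of GADD34, differed by 0.34 (unadjusted p = 0.00416, adjusted p = 0.490) and Eif2ak3 by 0.40 (unadjusted p = 0.00990, adjusted p = 0.661).

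A list of 53 further ATF4 and CHOP targets, among them amino acid transporters, enzymes of serine, proline and one-carbon metabolism and aminoacyl-tRNA synthetases, had 46 tested genes. Of these, 43 had a higher fitted level than control in XBP1ΔDC pools (51.2% of all tested genes) and 43 in XBP1ΔDC IRE1truncDC pools (49.4%). An unadjusted p under 0.05 was reached in the higher direction by 17 and 27 genes and in the lower direction by none, beside backgrounds of 2.67% and 5.73%, but none passed an adjusted p of 0.05 in either comparison. The median log2 fold change was 0.26 and 0.42. The smallest p-values in XBP1ΔDC belonged to Slc6a9, a glycine transporter (1.99, adjusted p = 0.0904), Gpt2, which encodes a mitochondrial alanine transaminase (0.72, adjusted p = 0.140), Mthfd2 of mitochondrial folate metabolism (0.40, adjusted p = 0.185) and Phgdh, the first enzyme of serine synthesis (0.82, adjusted p = 0.187). In XBP1ΔDC IRE1truncDC pools they belonged to Mthfd2 (0.61, adjusted p = 0.0505), Slc6a9 (2.49, adjusted p = 0.0556), Shmt2, which encodes mitochondrial serine hydroxymethyltransferase (0.66, adjusted p = 0.0563), and Herpud1, a component of ER-associated degradation (0.44, adjusted p = 0.0736). Slc6a9 stood at 2.701 ± 1.65 CPM in control and at 10.8 ± 4.40 and 15.3 ± 7.75 CPM in the XBP1ΔDC and XBP1ΔDC IRE1truncDC pools. With both lines averaged 4 of the 46 had an adjusted p under 0.05 (background 0.977%), namely Slc6a9 (2.24, adjusted p = 0.0297), Mthfd2 (0.51, 0.0273), Shmt2 (0.55, 0.0362) and Gpt2 (0.80, 0.0446). Each of these calls was lost without some single pools, with adjusted p up to 0.116, 0.121, 0.140 and 0.123. In XBP1ΔDC pools 3 of the 46 passed, Shmt2 (adjusted p = 0.0107) and Phgdh (adjusted p = 0.0258) among them, when replicate 2 of the other line was left out of the fit. Against control, Mthfd2 passed in XBP1ΔDC IRE1truncDC pools without replicate 1 and 2 of the 46, Shmt2 among them, without replicate 3 (adjusted p = 0.0193 for Mthfd2 and 0.0315 for Shmt2).

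**Figure D4:**
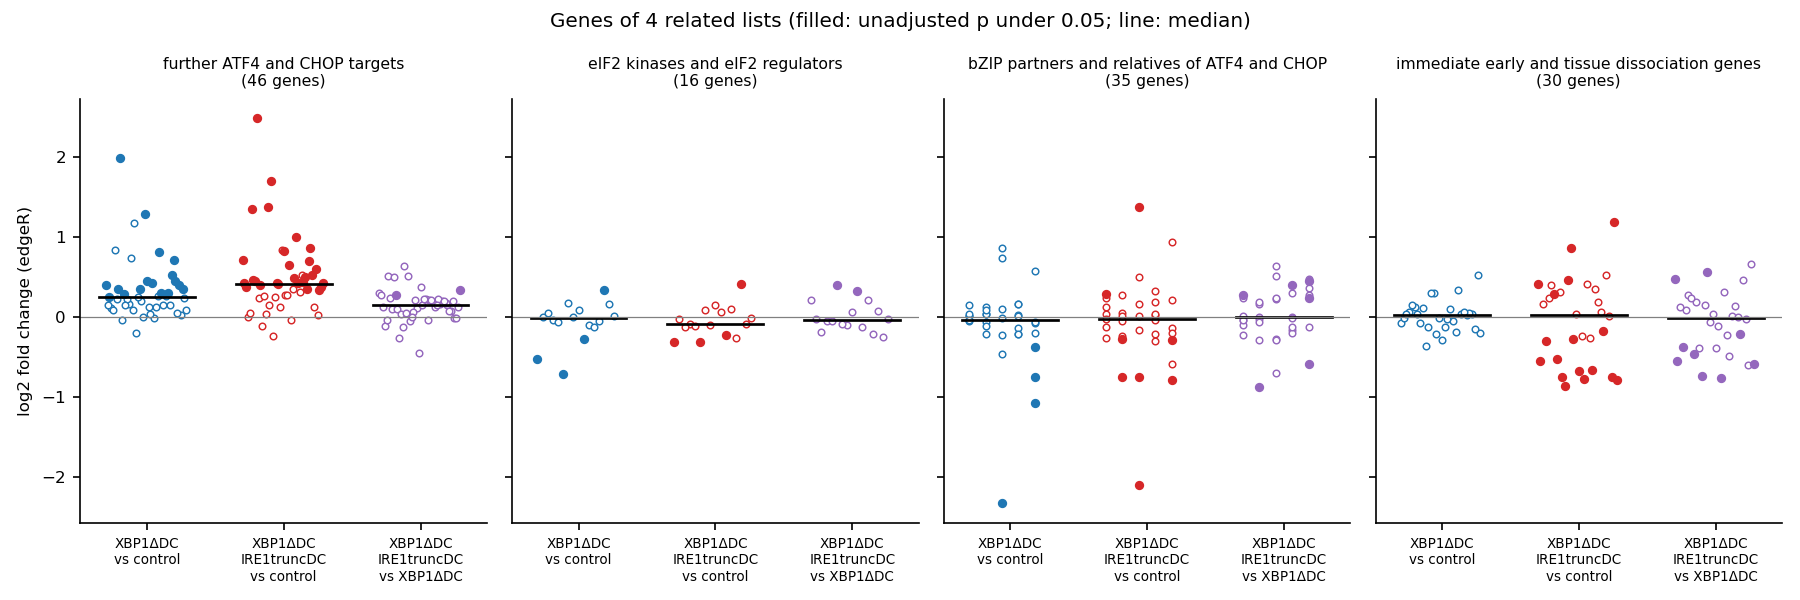
Log2 fold changes of the tested genes of 4 related lists in 3 comparisons; each point is a gene, filled where the unadjusted p is under 0.05, and the black line is the median of the list. The further ATF4 and CHOP targets have medians of 0.26, 0.42 and 0.15, while those of the other 3 lists stay between -0.082 and 0.033.

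Of the 37 further targets with a RefSeq promoter, 12 (32.4%) held the CARE motif, against 1 of 13 in the list of eIF2 kinases and regulators, 1 of 30 among relatives and partners of ATF4 and CHOP (Jdp2, which is also 1 of the 12) and 0 of 25 among immediate early genes. The list was drawn up as ATF4 and CHOP targets, so a higher share of this site may be built into the choice and tests nothing. Those of Gars, which charges tRNA for glycine, of Pck2, the mitochondrial phosphoenolpyruvate carboxykinase, and of Herpud1 are 3 of the 12 and are shown as examples beside the sites of the members; Gars and Pck2 were picked after their values were seen. They are written as above, with the match in capitals.
Gars, chr6:55037960-55037989, plus strand: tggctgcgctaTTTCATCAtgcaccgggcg
Pck2, chr14:55540152-55540181, plus strand: agccttcaaagTTACATCAgtatcttacag
Herpud1, chr8:94386306-94386335, plus strand: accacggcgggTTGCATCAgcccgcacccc

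In XBP1ΔDC IRE1truncDC pools against control, Gars had a log2 fold change of 0.43 (adjusted p = 0.103), Pck2 of 0.82 (adjusted p = 0.100) and Herpud1 of 0.44 (adjusted p = 0.0736). Directly between the lines, 2 of the 46 further targets had an unadjusted p under 0.05, Herpud1 (0.34, adjusted p = 0.431) and the transcription factor Nfe2l1 (0.27, adjusted p = 0.935), beside a background of 2.79%. That count was 7 without replicate 1 or without replicate 3 of the double-deficient line, 4 without XBP1ΔDC replicate 1 and 1 without XBP1ΔDC replicate 3 or 4. The backgrounds of these fits were 2.48% to 3.23%. The median of the list in that comparison was 0.15 with all pools and -0.0082 without replicate 2 of the double-deficient line. Against control, the count of higher genes at an unadjusted p under 0.05 in XBP1ΔDC IRE1truncDC pools was 22 without that replicate (background 6.74%). Without control replicate 4 it was 12 in XBP1ΔDC (background 2.05%) and 25 in XBP1ΔDC IRE1truncDC pools (background 4.15%).

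Among 35 tested relatives and partners of ATF4 and CHOP in the basic leucine zipper family, 16 were higher and 19 lower in XBP1ΔDC pools and the medians of the 2 lines were -0.031 and -0.016 against control. At an unadjusted p under 0.05, none was higher and 4 were lower in XBP1ΔDC (backgrounds 2.67% and 4.95%), and 2 were higher and 6 lower in XBP1ΔDC IRE1truncDC pools (backgrounds 5.73% and 5.44%). The median of the XBP1ΔDC line turned to 0.070 without control replicate 1 (20 higher, 14 lower) and to 0.037 without XBP1ΔDC replicate 3, and it was -0.091 without control replicate 4 (11 higher, 24 lower). In the double-deficient line the median stayed below 0 without any single pool. The 6 lower genes became 2 without replicate 3 of that line and 3 without control replicate 1. They became 8 without control replicate 3 and 7 without control replicate 4. The 2 higher genes became 1 to 5. Creb3l2, an ER-bound transcription factor, fell in both lines, from 10.05 ± 1.84 CPM in control to 1.99 ± 0.719 CPM in XBP1ΔDC (log2 fold change -2.33, adjusted p = 0.00158) and to 2.34 ± 0.638 CPM in XBP1ΔDC IRE1truncDC pools (-2.10, adjusted p = 0.0134). The second call was lost without control replicate 2 or replicate 2 or 3 of that line (adjusted p up to 0.0730). Xbp1, the targeted gene, fell in XBP1ΔDC pools (-0.74, adjusted p = 0.00167). Atf6b had a log2 fold change of -0.38 in XBP1ΔDC (adjusted p = 0.106). Atf5, a close relative and target of ATF4, had values of 0.75 (adjusted p = 0.751) and 1.39 (adjusted p = 0.233) at levels of 0.663, 1.11 and 1.74 CPM in the 3 groups. Jun stood at 342 ± 47.7, 298 ± 74.4 and 199 ± 36.2 CPM (-0.78 in the double-deficient line, adjusted p = 0.111).

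The mean z-score of the 10 genes over log2 CPM ordered the pools from control replicate 4 (-1.54) to XBP1ΔDC IRE1truncDC replicate 2 (1.34). Control replicates 2 and 3 stood at -0.76 and -0.73 and control replicate 1 at 0.076, which lay above XBP1ΔDC replicate 3 (-0.13). The other XBP1ΔDC pools stood between 0.098 and 0.41, and the other XBP1ΔDC IRE1truncDC pools at 0.30 and 0.57. The 5 genes outside the set whose log2 CPM followed this score most closely over the 11 pools were Nars (Pearson r = 0.91), Gpt2 (0.91), Aars (0.91), Mthfd2 (0.90) and Rab20 (0.90), the highest of all tested genes. These values describe 11 pools that share 3 genotypes. Nars, Gpt2, Aars and Mthfd2 belong to the list of further targets, and Nars stood at 187 to 245 CPM in control, 235 to 269 CPM in XBP1ΔDC and 259 to 319 CPM in XBP1ΔDC IRE1truncDC pools.

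Markers of other cell states and types were read in the same fit. All 10 markers of mature dendritic cells, such as Fscn1 and Il12b, had higher fitted levels in both lines (51.2% and 49.4% of all tested genes). An unadjusted p under 0.05 was reached by 1 of them in XBP1ΔDC (background 2.67%) and by all 10 in XBP1ΔDC IRE1truncDC pools (background 5.73%). None had an adjusted p under 0.05. Their summed level was 2694 to 5280 CPM in control, 3509 to 7175 CPM in XBP1ΔDC and 5069 to 10043 CPM in XBP1ΔDC IRE1truncDC pools. Its highest value was in replicate 3 of the double-deficient line, the highest of its group for Chac1, Atf3 and Ppp1r15a. Replicate 2, the highest of its group for the other 7 of the 10 stress genes, had the lowest summed level of its group. In XBP1ΔDC pools, replicate 1 had both the highest summed level and the highest mean z-score of the 10 genes. In control pools these were replicate 3 and replicate 1. The summed level of 11 cDC1 genes was 13106 to 14385 CPM in control, 11014 to 12366 CPM in XBP1ΔDC and 12023 to 12836 CPM in XBP1ΔDC IRE1truncDC pools. Of the 11, 1 gene, Naaa, was lower in both lines at an adjusted p under 0.05, reached in either direction by 98 and 39 of all 10951 tested genes. At an unadjusted p under 0.05, 2 were lower in each line (background 4.95% and 5.44%) and 1 was higher in the double-deficient line (background 5.73%). That of 7 melanoma genes was 8.96 to 60.9, 12.2 to 64.7 and 8.74 to 11.02 CPM. Of the 4 melanoma genes that passed the filter, none had an unadjusted p under 0.05 in XBP1ΔDC (median log2 fold change -0.024), and 3 had one in XBP1ΔDC IRE1truncDC pools (median -1.86). The backgrounds in either direction were 7.62% and 11.2%. In the latter pools Dct (-2.45) and Pmel (-1.99) were lower and Mitf (0.95) higher, none at an adjusted p under 0.05. The summed level of 10 macrophage and monocyte genes was 702 to 1031, 668 to 957 and 499 to 1207 CPM. Of the 10 macrophage and monocyte genes, 9 had higher fitted levels in XBP1ΔDC (median log2 fold change 0.72) and 8 in XBP1ΔDC IRE1truncDC pools (0.20). At an unadjusted p under 0.05, 1 was higher in XBP1ΔDC (background 2.67%) and none in the other line (background 5.73%). All 4 plasmacytoid DC genes had lower fitted levels in both lines (median -0.39 and -0.62), 2 of them, Siglech and Ccr9, at an unadjusted p under 0.05 in XBP1ΔDC IRE1truncDC pools (background 5.44% lower), and their summed level was 110 to 127, 90.1 to 113 and 95.2 to 107 CPM. The part of these groups in the stress transcripts was not tested.

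Atf3 and Ppp1r15a also belong to the genes that respond within minutes to many stimuli, among them tissue dissociation, so a list of 30 immediate early and dissociation genes was read in the same fit. In XBP1ΔDC pools none had an unadjusted p under 0.05 (background 7.62% in either direction) and the median log2 fold change was 0.033. In XBP1ΔDC IRE1truncDC pools 5 were higher and 12 lower at an unadjusted p under 0.05, none at an adjusted p under 0.05 (background 11.2% in either direction). That split leaned on single pools: it was 10 higher and 5 lower without control replicate 1, 2 and 10 without control replicate 2, 3 and 9 without control replicate 3, 2 and 11 without control replicate 4, and 4 and 7, 5 and 8, and 2 and 9 without replicate 1, 2 or 3 of the double-deficient line. Without that replicate 2, 2 of the lower genes had an adjusted p under 0.05. In XBP1ΔDC pools up to 3 genes had an unadjusted p under 0.05 when 1 pool was left out, the 3 being higher without control replicate 1. The smallest p-values were those of Jun, the heat shock genes Hspa1a (-0.86, adjusted p = 0.149) and Hspa1b (-0.77, adjusted p = 0.173), and the co-chaperone Dnajb1 (-0.53, adjusted p = 0.155). The summed level of the list was 15000 to 20099, 13912 to 19517 and 16098 to 19530 CPM in the 3 groups. Its highest pool was replicate 1 in control and replicate 3 in the double-deficient line, as for Atf3 and Ppp1r15a. In XBP1ΔDC pools it was replicate 4, whereas Atf3 and Ppp1r15a were highest in replicate 1. Control replicate 1 was the highest control for 7 of the 10 stress genes.

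**Figure D5:**
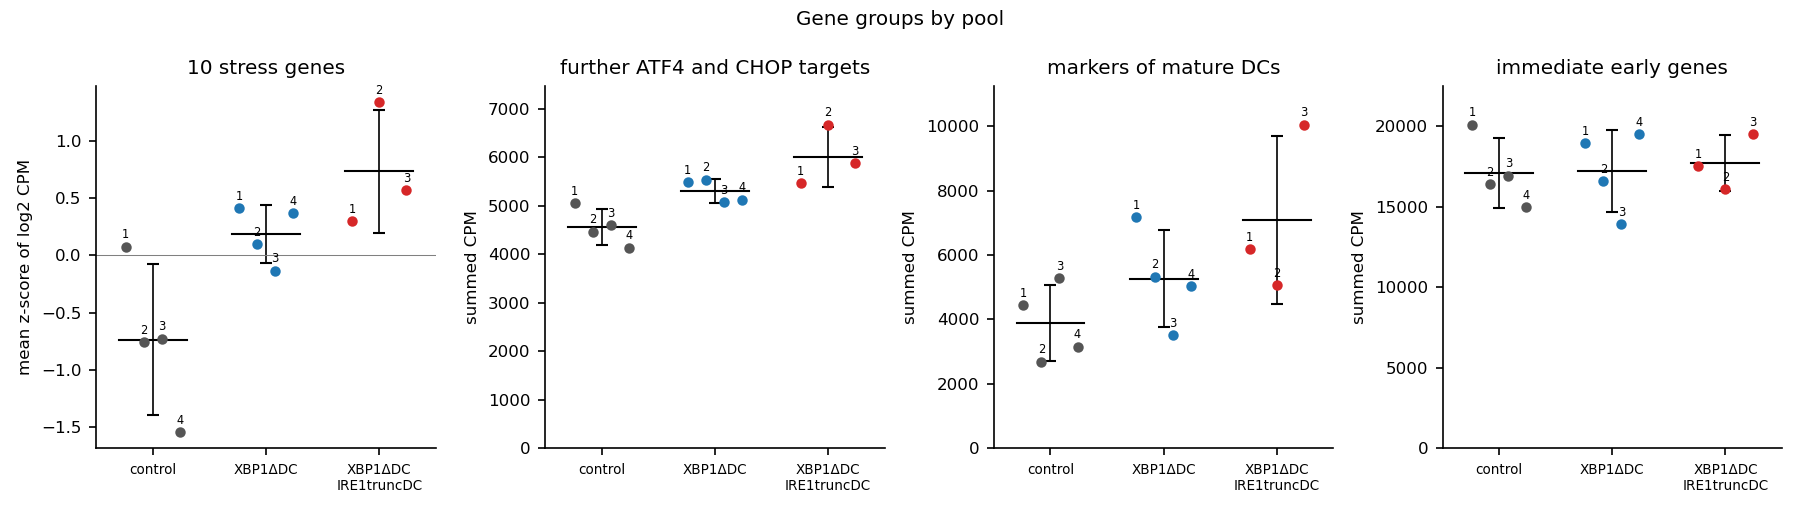
Mean z-score of the 10 stress genes and summed CPM of 3 gene lists in every pool; points are pools with their replicate number, bars are group means and whiskers SD (n = 4, 4 and 3). Replicate 2 of XBP1ΔDC IRE1truncDC is highest for the stress genes and for the further ATF4 and CHOP targets, while replicate 3 is highest for mature dendritic cell markers at 10043 CPM.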

How the data were processed

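cDC1s sorted from B16 tumors were profiled by SMART-seq v4 and single-end sequencing. The authors trimmed reads with Trimmomatic 0.39, checked them with FastQC 0.11.8, aligned them with STAR 2.7.3a to a mouse genome (mm10 in the submitters' processing notes, the same build as GRCm38) and counted reads per gene; the deposited table holds raw counts. The second deposited table holds log2 CPM of 11118 genes, normalized by the authors with limma 3.42.2. For the 10951 genes compared, it differed by at most 0.000691 from log2 CPM computed here by voom.

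The 10951 genes with more than 1 CPM in 4 or more pools were scaled by TMM and fitted together over all 11 pools with the quasi-likelihood test of edgeR 4.0.16 (R 4.3.3). Each p-value tests a difference between genotype groups against the spread between pools. Every pool combined 2 to 4 mice, so the spread between single mice was not measured. RPKM used exon lengths of GENCODE vM21. Alternatives included DESeq2 1.42.0 and limma 3.58.1, other scalings and filters, and leaving out each pool. On simulated counts for XBP1ΔDC against control (10846 genes), the test called 68% of genes changed 2-fold and 22% of those changed 1.5-fold. Totals of 21089065 to 26843486 counts leave 40 counts for the scarcest value (Trib3), and counting error is only part of the spread. The 10 genes and all lists were chosen with earlier results of these data known. Genes outside the set were named when their adjusted p was under 0.05. Otherwise they were up to 4 per list and comparison with the smallest p, or the 5 most alike in pattern. Exceptions were Gars and Pck2, picked for their promoters after their values were seen, and Xcr1 and Clec9a, named as defining cDC1 markers. Mars and Tmem189 were named for their overlaps with Ddit3 and Cebpb, Jdp2 for a promoter match and Ern1 as the other targeted gene. Some items are not reported here.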

Additional observations from a re-analysis of the deposited data

How the results depend on the processing

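Of 720 alternative values for the 10 genes, 660 kept direction and side of the threshold. Most of these belong to results that were not called in the main fit. Of 24 alternatives each, the call in XBP1ΔDC IRE1truncDC pools was lost in 14 for Trib3, 13 for Asns and 10 for Eif4ebp1. In XBP1ΔDC IRE1truncDC pools against control, 3 of the 10 genes were DEGs, 0 with a replicate block or only the 2 groups compared, 1 with limma voom, 5 with DESeq2, and 0 to 2 without 1 pool. In XBP1ΔDC pools the count was 0, but 3 with DESeq2, 1 with limma on the deposited table, 1 with no filter, 2 with only the 2 groups compared, and 0 to 2 without 1 pool. With both lines averaged it was 2, and 0 to 3 without 1 pool. The count at an unadjusted p under 0.05 between the lines was 3, and 1 to 4 without 1 pool.

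DEGs over all genes numbered 54, 23 and 8. XBP1ΔDC against control gave 98 with no fold limit and 37 to 57 without 1 pool. XBP1ΔDC IRE1truncDC against control gave 39 with no fold limit, 95 with DESeq2, 15 with only the 2 groups compared, 11 with the replicate block and 12 to 23 without 1 pool. Between the lines there were 36 with DESeq2, 3 with the block and 4 to 10 without 1 pool.

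Leaving out 1 pool turned the direction of these log2 fold changes, none of them called: in XBP1ΔDC, Atf3 (-0.055 to 0.19) and Cebpb (-0.016 to 0.37); in the double-deficient line, Atf3 (-0.14 to 0.10); between the lines, Atf4 (-0.12 to 0.0020), Ddit3 (-0.10 to 0.33), Trib3 (-0.071 to 1.29), Asns (-0.12 to 0.56), Atf3 (-0.19 to 0.0044) and Cebpb (-0.11 to 0.32). Leaving out a pool that a comparison does not enter both lost and gained calls. The Trib3 call in the double-deficient line was lost without any 1 XBP1ΔDC pool. XBP1ΔDC against control had 2 DEGs among the 10 genes without replicate 2 of the double-deficient line, and none with all pools. Deviations of same-numbered pools over all tested genes correlated weakly, from 0.042 to 0.13 between XBP1ΔDC and control. In pairs with the double-deficient line the correlations were -0.26 to 0.027. Such weak values do not show whether same-numbered pools shared an experiment. The cause of these shifts was not tested. Other scalings moved the median of all genes by at most 0.033 on the log2 scale. Depth limits Trib3, Chac1 and Asns most.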
